A study of Bos taurus with 8 samples.

Results

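The insulin-like growth factor (IGF) system was examined in cattle cells, in stem-like cells derived from embryos (eSLCs) and in somatic cells (SCs). It was represented by 10 genes, chosen by name: the ligands IGF1 and IGF2, the receptors IGF1R and IGF2R, the non-coding RNA H19, and the binding proteins IGFBP2, IGFBP3, IGFBP4, IGFBP5 and IGFBP6. All 10 genes had probes on the array. They were found through 34 of the 26731 probes that could be named, and the named probes stood for 12602 genes in all. All 10 passed the filter on low signals and were tested.

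IGF1 and IGF2 are secreted growth factors that act mainly through the tyrosine kinase receptor IGF1R, and IGF2R takes up IGF2 and delivers it to lysosomes. The binding proteins hold the ligands outside the cell and set how much of them can reach the receptor. IGF2 is expressed from the paternal allele in many tissues of placental mammals, whereas H19 and IGF2R are expressed from the maternal allele. The system is known for its part in the growth of the embryo and the placenta.

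All samples came from HanWoo cattle, and RNA of each sample was hybridized to 1 one-colour Agilent array. IVP-eSLCs were derived from in vitro produced embryos (I2 and I9, taken at passages 35 and 30). NT-eSLCs came from embryos made by somatic cell nuclear transfer (N2 and N7, taken at passages 36 and 30), and PA-eSLCs from parthenogenetic embryos, which have no paternal genome (P1 and P4, taken at passages 31 and 36). SCs were sampled at passages 5 and 10 (SC P5 and SC P10), and the labels give no tissue for them. All eSLC lines grew out of blastocysts on inactivated murine STO feeder cells, in 3i medium with the inhibitors PD184352, SU5402 and CHIR99021, whereas SCs grew in DMEM with serum, so that cell type, medium and feeder cannot be told apart. There were 2 arrays per condition, each line is 1 culture, and nothing says that the SC samples are separate cultures, so that p-values measure only the spread between these samples.

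Signals are given as background-subtracted intensities divided by the 75th percentile of their array, which is set to 1000, and a value of 13.3 is the floor below which signals were not ordered. A gene is described by its brightest probe, and the heights of different probes cannot be compared. A gene was called with limma when its Benjamini-Hochberg adjusted p over all 10957 genes tested was under 0.05 and its difference was at least 2-fold. Differences are log2 values of the first condition minus the second, with their standard error (SE) from the fit. The share of spots well above background was 71.2% to 76.7% per array. The arrays lay on 2 slides, with both IVP-eSLC arrays on slide 1 and both PA-eSLC arrays on slide 2. All 10 trophoblast markers of a list were called higher in eSLCs, with summed signals of 442854 to 1407129 against 3421 and 4580 in SCs, where CDX2, ELF5 and PAG2 were at the floor. Of 12 fibroblast markers 10 were called lower, with sums of 13537 to 71252 in eSLCs and 706859 and 869822 in SCs. Of 3 pluripotency genes tested, 1 was called higher in eSLCs. This was LIN28A, at 187 to 316 in the lines and at the floor in SCs, at least 19.4-fold higher (adjusted p = 2.46e-05). POU5F1 was higher in every line than on both SC arrays but was not called (difference 2.05, adjusted p = 0.164). NANOG lay between the floor and 35.4 in eSLCs and was not called. In these bulk samples, fewer cells of a type and less RNA per cell cannot be told apart, and the part of these cell type differences in the results on the IGF genes was not tested.

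Between eSLCs and SCs the receptor IGF1R and the binding proteins IGFBP2, IGFBP3 and IGFBP5 were lower in eSLCs, and no member was higher. The 4 members called lower compare with a background of 15.7% of all genes tested that were called lower, 19.7% called higher and 35.4% called in either direction. The median difference was -0.78 over the members and 0.23 over all genes tested. Quantile normalization put the latter median at 0.12, and the same number of members was called. The arrays of eSLCs and SCs did not overlap for 4 members, all lower in eSLCs, while 57.6% of all genes tested had arrays that did not overlap. IGFBP2 and IGFBP5 remained called whichever single array was left out. Fewer members, and fewer of all genes, were called without I2, P1, P4, SC P5 or SC P10. More members, and more of all genes, were called without N2 or N7.

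**Figure D1:**
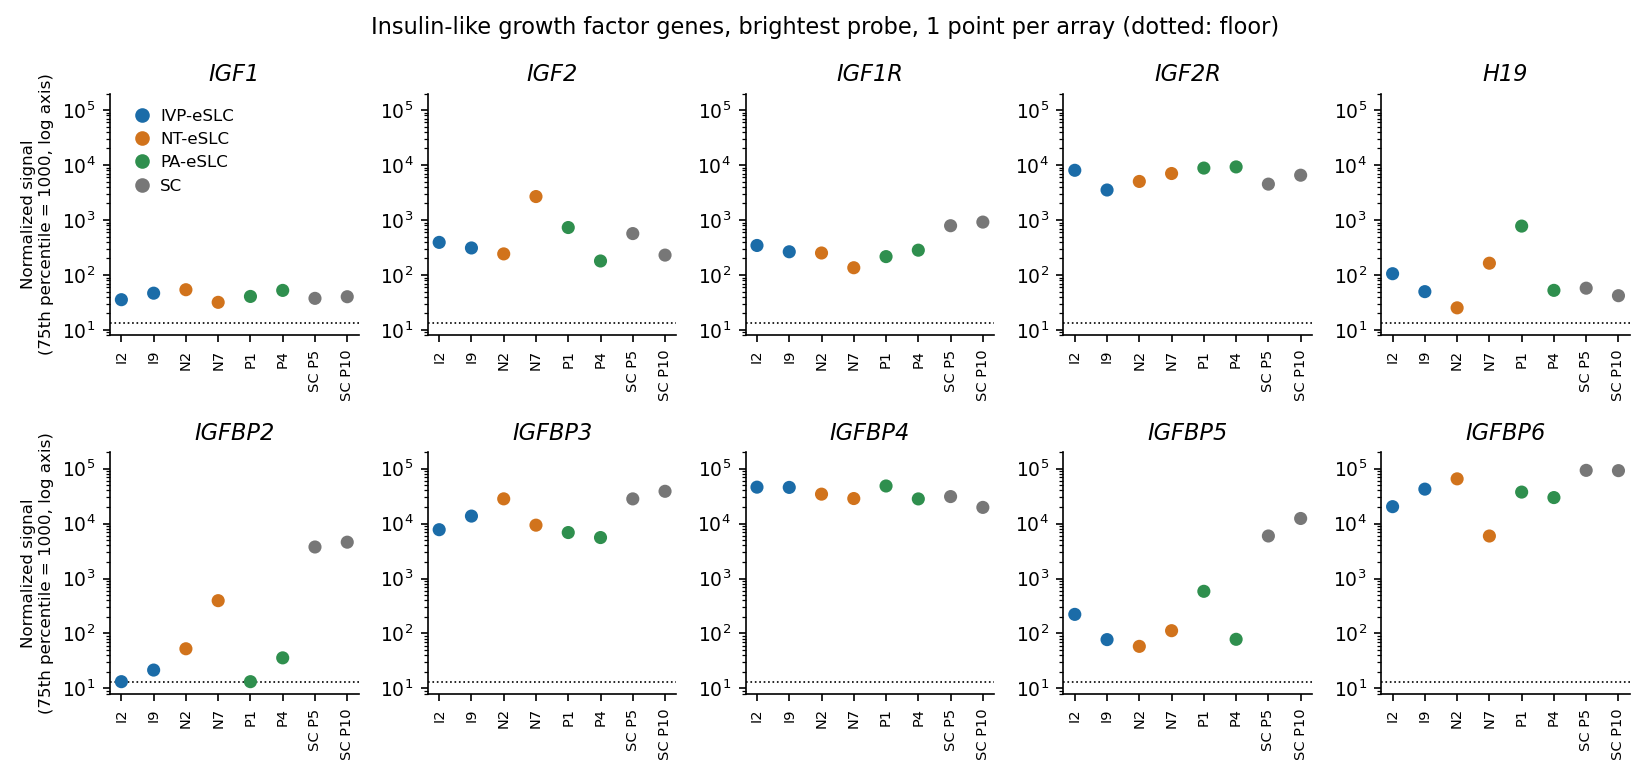
Normalized signal of the 10 members on each of the 8 arrays, on a log axis on which the 75th percentile of the array is 1000, with 1 point per array and the floor of 13.3 as a dotted line. IGFBP2 and IGFBP5 lie far below both SC arrays in all 6 eSLC lines, IGF2 stands highest in N7 and H19 highest in P1.

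IGFBP2, a binding protein found in many fetal tissues, showed the largest difference among the members by their brightest probes. Its signal was at the floor of 13.3 in I2 and P1, 21.6 in I9, 36.0 in P4, 52.7 in N2 and 395 in N7, while SC P5 was at 3743 and SC P10 at 4578. All eSLC lines were below both SC arrays, and N7 stood above the other lines. The difference was -6.78 (SE 0.80, adjusted p = 0.00121), a 110-fold lower signal in which 2 lines sat at the floor. IGFBP2 was called lower in each origin, with differences of -7.93 in IVP-eSLCs, -4.84 in NT-eSLCs and -7.56 in PA-eSLCs. The second probe of the gene was also called, with a difference of -5.71.

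IGFBP5, a binding protein that also attaches to extracellular matrix, is the neighbour of IGFBP2 in the cattle assembly ARS-UCD2.0, with 0 annotated genes between them. Its signal was 223 in I2, 77.4 in I9, 58.3 in N2, 112 in N7, 585 in P1 and 78.4 in P4, and 5935 and 12356 in SC P5 and SC P10. P1 was the highest of the lines and still far below SC P5. The difference was -6.02 (SE 0.85, adjusted p = 0.0025), or 65.1-fold, and IGFBP5 was called lower in IVP-eSLCs, NT-eSLCs and PA-eSLCs alike. Its second probe differed by -6.14 and followed the first across the 8 arrays. The line with the highest signal was therefore not the same for IGFBP2 and IGFBP5.

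IGFBP3, the main carrier of IGFs in blood, had a smaller difference and a less stable call. The signals were 7726 in I2, 13659 in I9, 28117 in N2, 9336 in N7, 6855 in P1 and 5559 in P4, while SC P5 was at 28072 and SC P10 at 38566. N2 was level with SC P5, so the groups overlapped, and the PA-eSLC lines were the lowest. The difference was -1.71 (SE 0.46, adjusted p = 0.0265), and all 5 probes of the gene were called lower, by -1.59 to -1.74. By origin, IGFBP3 was called in PA-eSLCs (-2.41, adjusted p = 0.0186) but passed the threshold neither in IVP-eSLCs (-1.68, adjusted p = 0.0616) nor in NT-eSLCs (-1.02, adjusted p = 0.212). The call was lost without I2 (adjusted p = 0.0663), P1 (0.0612), P4 (0.0803), SC P5 (0.124) or SC P10 (0.196).

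IGFBP6, which binds IGF2 in preference to IGF1, gave 20275 in I2, 42224 in I9, 64971 in N2, 5928 in N7, 37314 in P1 and 29659 in P4. SC P5 gave 92689 and SC P10 gave 91633. Every line was below both SC arrays, but the lines spread widely among themselves, with N7 lowest and N2 highest. The difference of -1.79 (SE 0.87) did not pass the threshold (adjusted p = 0.14), with a 95% interval from -3.91 to 0.34. The second probe differed by -2.02 (adjusted p = 0.119). Without N2 (adjusted p = 0.00796) or without N7 (adjusted p = 0.0367) it passed, at differences of -2.36 and -1.21.

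The result for IGFBP4, a binding protein cleaved by the protease PAPPA, depended on the probe. The brighter probe (A_73_P394806) gave 45877, 45403, 34222, 28479, 48181 and 28043 in I2, I9, N2, N7, P1 and P4, and 30929 and 19655 on the SC arrays. Its groups overlapped, and its difference of 0.60 (SE 0.28) did not pass the threshold (adjusted p = 0.129). The other probe (A_73_116582) was at the floor in I2 and P1, just above it in I9, and at 17.8 in N2, 26.1 in P4 and 115 in N7, against 16308 and 24139 in SC P5 and SC P10. With each probe tested on its own, an alternative chosen after seeing the data, this probe was called lower by -9.76 (SE 0.72, adjusted p = 0.000314). Both probes carry the same RefSeq accession, and Pearson's r between them over the 8 arrays was -0.73. Which of them follows the transcripts of the gene was not tested, so no direction is given for IGFBP4.

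**Figure D2:**
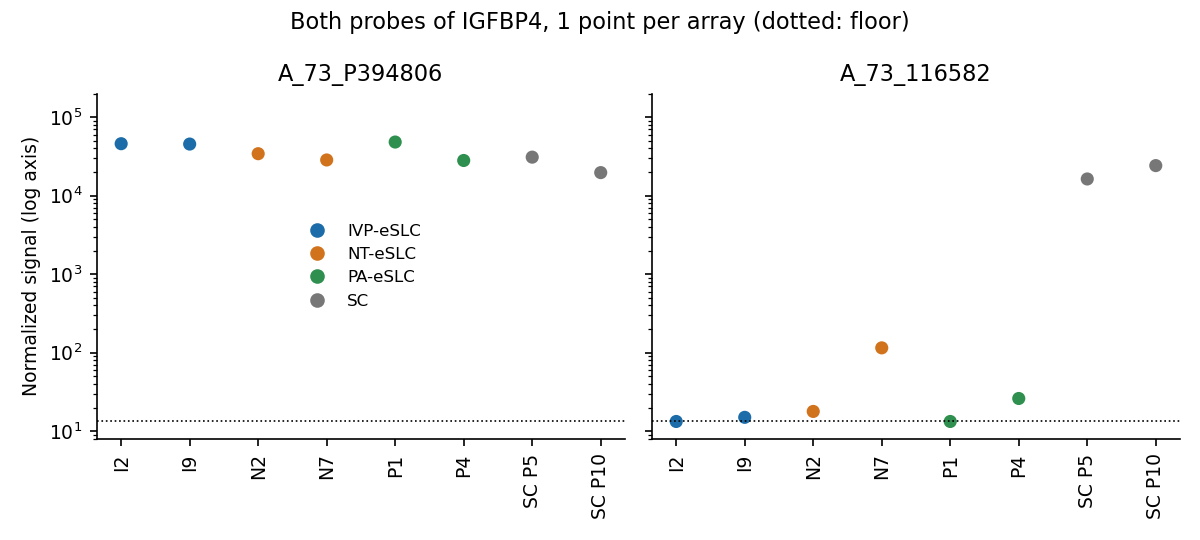
Normalized signal of the 2 probes of IGFBP4 on the 8 arrays, on log axes with 1 point per array, coloured by condition, and the floor as a dotted line. A_73_P394806 stays between 19655 and 48181 on all arrays, while A_73_116582 lies at or below 115 in the eSLC lines and at 16308 and 24139 in SCs.

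IGF1R, the receptor that carries the growth signal of both ligands, was measured by 1 probe. Its signal was 344 in I2, 264 in I9, 251 in N2, 135 in N7, 216 in P1 and 283 in P4, and the SC arrays were at 787 (P5) and 916 (P10). All lines were below both SC arrays, and N7 was the lowest. The difference was -1.83 (SE 0.28, adjusted p = 0.00355), which is 3.55-fold, and it was -1.77 within slide 1 and -1.88 within slide 2. IGF1R was called lower in IVP-eSLCs (-1.49), NT-eSLCs (-2.20) and PA-eSLCs (-1.78). Without SC P10 the adjusted p was 0.0503.

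IGF2R, the clearance receptor, had a signal of 8020 in I2, 3513 in I9, 5028 in N2, 7009 in N7, 8802 in P1 and 9240 in P4. SC P5 gave 4495 and SC P10 gave 6529, in the midst of the lines. The difference between eSLCs and SCs was 0.28 (SE 0.35, adjusted p = 0.544). With the authors' own normalized values in place of the scanner signals it was 1.92 (adjusted p = 0.0171), above the threshold.

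IGF1 was dim on every array. Its brightest probe gave 35.5 in I2, 46.7 in I9, 54.0 in N2, 31.8 in N7, 40.7 in P1 and 52.4 in P4, with 37.6 in SC P5 and 40.2 in SC P10. The lines and SCs overlapped, and the difference was 0.14 (SE 0.26, adjusted p = 0.689), with a 95% interval from -0.50 to 0.77. A second probe was at the floor in all lines except I9 (21.0), with 32.8 in SC P5 and 26.1 in SC P10, and was called lower by -1.03 when tested on its own. The third probe was at the floor on all 8 arrays.

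With each probe tested on its own, 12 of the 34 probes were called lower in eSLCs and 0 were called higher. Among all 34414 probes tested, 16.4% were called lower and 17% higher. The called probes belonged to 6 genes, namely the 4 called by their brightest probe, and IGF1 and IGFBP4.

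**Figure D3:**
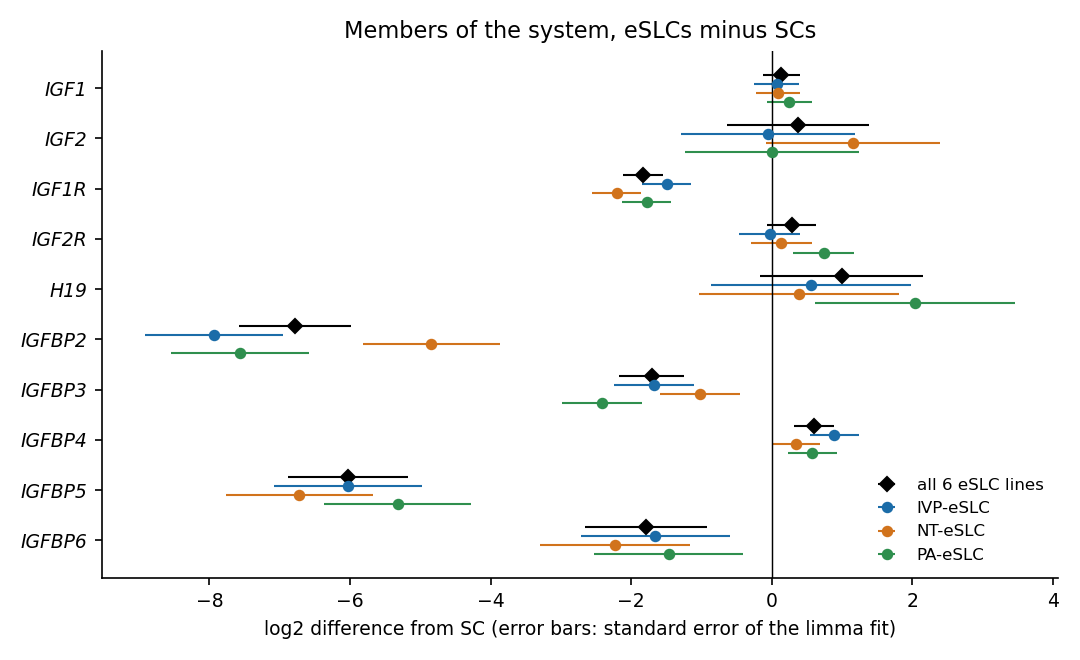
Log2 difference from SCs of each member for all 6 eSLC lines (diamonds) and for IVP-, NT- and PA-eSLCs (circles), with the standard error of the limma fit as bars. IGFBP2 and IGFBP5 lie between -4.84 and -7.93 in every origin, and IGF1R and IGFBP3 between -1.02 and -2.41, while IGF1, IGF2, IGF2R and H19 have values near 0 or wide errors.

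Against SCs by origin, 3 members were called lower in IVP-eSLCs, 3 in NT-eSLCs and 4 in PA-eSLCs, and none was called higher. Of all genes tested, 32.3%, 29.8% and 35.2% were called in these comparisons, with 14.6%, 13.9% and 14.9% called lower and 17.7%, 15.8% and 20.3% called higher. The same SC arrays serve all 3 comparisons. The counts moved with single arrays. In each origin fewer members were called without SC P5 or SC P10, and fewer of all genes were called as well. The same held for PA-eSLCs without P1 or P4 and for IVP-eSLCs without I2 or I9. More members were called in IVP-eSLCs and in PA-eSLCs without N2 or N7, where more of all genes were called. More were also called in NT-eSLCs without N2, where fewer of all genes were called. Each of these fits leaves 1 array in a condition.

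The imprinted genes were then followed line by line, since PA-eSLCs lack a paternal genome. IGF2 was not lower in both PA-eSLC lines than in the lines with a paternal genome. Its brightest probe gave 392 in I2 and 310 in I9 (IVP), 242 in N2 and 2672 in N7 (NT), 730 in P1 and 180 in P4 (PA), and 567 and 230 in SC P5 and SC P10. N7 was the highest and P4 the lowest array, with P1 above every line except N7. The difference between PA- and IVP-eSLCs was 0.06 (SE 1.24, adjusted p = 1), with a 95% interval from -2.97 to 3.08. In this comparison 0 of the 10957 genes tested were called (0%), with 5.19% at an unadjusted p under 0.05. Without P1 the difference was -0.96, and with the slide as a block it was 2.44 (adjusted p = 0.934). Between eSLCs and SCs it was 0.37 (SE 1.01, adjusted p = 0.784), and -0.21 without N7 or -0.28 without SC P10.

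The 11 probes of IGF2 fell into sets of unlike behaviour, described here with the limit of 5-fold chosen after their values were seen. For 6 probes the lines spread 5.43- to 20.0-fold, and these followed the brightest probe over the 8 arrays with Pearson's r of 0.974 to 0.996. N7 was the highest line in all 6, at 2.20 to 3.96 times the next line, and P1 was 2.29 to 5.06 times P4. For the other 5 probes the lines spread 1.36- to 2.79-fold, with r between -0.32 and 0.44, and P1 was 0.578 to 1.58 times P4. Against SCs, 0 of the 11 probes were called, and the differences ranged from 0.05 to 0.73.

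H19 lies in the same imprinted cluster as IGF2. It is transcribed into RNA that is not translated. Its brightest probe gave 106 in I2, 49.8 in I9, 25.3 in N2, 164 in N7, 775 in P1 and 52.5 in P4, with 57.5 in SC P5 and 42.0 in SC P10. P1 was the highest and N7 the next, while P4 lay among the other arrays. P1 was the highest line with all 3 probes of H19, at 14.8, 16.0 and 10.9 times P4. The difference between PA- and IVP-eSLCs was 1.48 (SE 1.42, adjusted p = 0.894). It was -0.46 without P1, 3.05 with the slide as a block (adjusted p = 0.934) and 2.28 with the authors' normalized values (adjusted p = 0.880). Between eSLCs and SCs it was 0.99 (SE 1.16, adjusted p = 0.508) for the brightest probe and 2.90 (adjusted p = 0.0859) for the second probe, which was at 20.0 in SC P5 and at the floor in SC P10. P1 was thus above P4 for H19 and for the 6 widely spread probes of IGF2, but not for all other probes of IGF2. The highest line was P1 for H19 and N7 for those 6 probes.

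**Figure D4:**
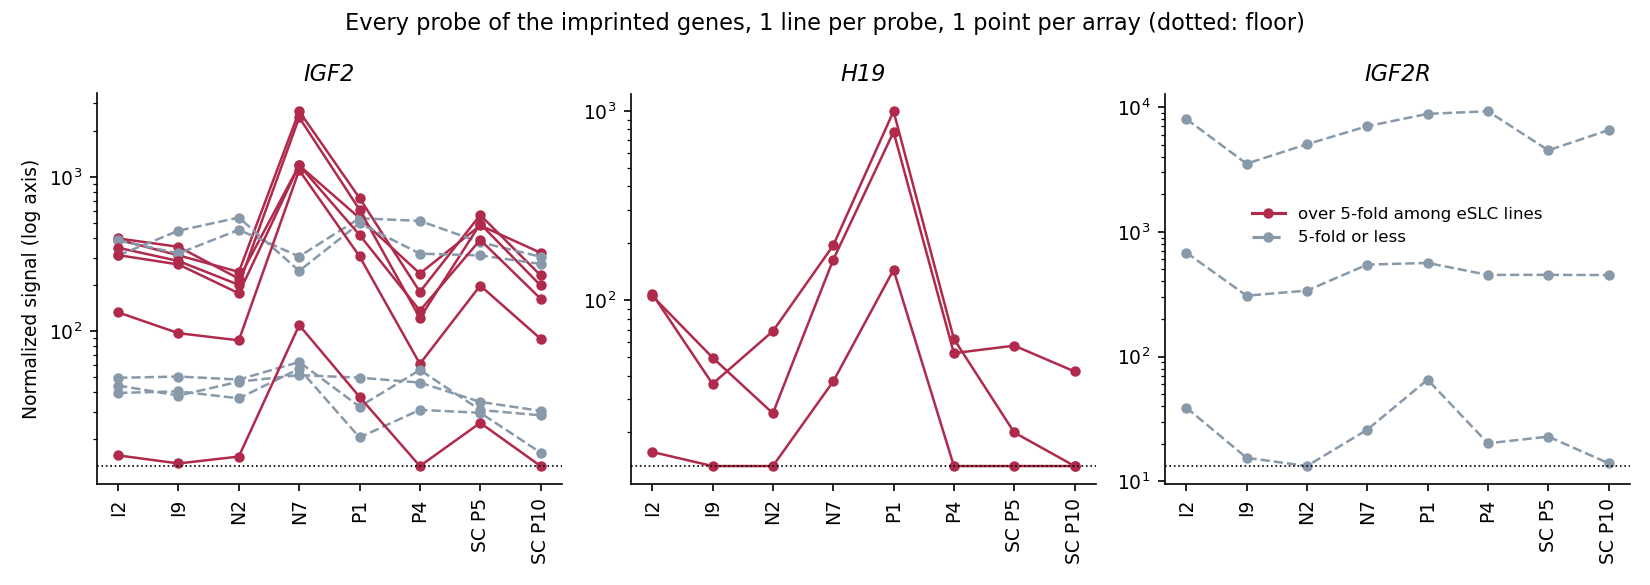
Normalized signal of every probe of IGF2 (11), H19 (3) and IGF2R (3) on the 8 arrays, on log axes, with 1 line per probe, solid where the eSLC lines spread over 5-fold and dashed otherwise, and the floor as a dotted line. The solid probes of IGF2 peak in N7, all 3 probes of H19 peak in P1, and no probe of IGF2R spreads over 5-fold among the lines.

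IGF2R was higher in both PA-eSLC lines than in both IVP-eSLC lines by its brightest probe. The difference was 0.76 (SE 0.43), which did not pass the threshold (adjusted p = 0.852), and arrays that did not overlap were found in 35.1% of all genes in this comparison. It was 0.17 without I9, 1.36 without I2 and 2.15 with the authors' normalized values (adjusted p = 0.880). The other probes of the gene differed by 0.14 and 0.56. Against IVP- and NT-eSLCs together the difference was 0.68 (adjusted p = 0.582), while H19 differed by 1.56 (adjusted p = 0.668) and IGF2 by -0.55 (adjusted p = 0.877). PA- and IVP-eSLCs lay on different slides, so a slide effect between them could be estimated only from NT-eSLCs and SCs, which had 1 array on each slide. With the slide as a block, IGF2R differed by 0.74 (adjusted p = 0.934).

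No member was called among the origins, neither NT- against IVP-eSLCs nor PA-eSLCs against the other lines, and limma called 0 of all genes tested in each of these comparisons (0%). At an unadjusted p under 0.05 there were 2.8% of all genes between NT- and IVP-eSLCs and 8.67% between PA-eSLCs and the others. The methods' t-test without adjustment called 0 members in each. IGFBP2 was the only member with an unadjusted limma p under 0.05 in any of them, with a log2 difference of 3.09, higher in NT- than in IVP-eSLCs (unadjusted p = 0.0197, adjusted p = 1). Its signals there were 13.3 and 21.6 in I2 and I9 against 52.7 and 395 in N2 and N7.

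N7 was the highest line for IGF2 and IGFBP2 and the lowest for IGF1, IGF1R and IGFBP6. Its gap to the next line was 0.210 of the range of the 6 lines for IGF1. For the other genes named it was 0.481 to 0.594, in each case below Dixon's 95% critical ratio. Markers of other cell types also differed in N7. The 12 endoderm and liver markers summed to 204360 in N7 and to 50838 to 84682 in the other lines. Their sums in SCs were 55614 and 56879. Of the sum in N7, APOA1 made up 112754 and APOE 70099, and APOE was higher in P1 (72683). In N7 11 of the markers were well above background, in P1 12, in the other lines 9 or 10 and in SCs 7. HNF4A, a transcription factor of endoderm and liver, was at 9035 in N7 and at most 23.4 elsewhere, and APOA1, an apolipoprotein, was at 112754 in N7 and at 1098 to 6824 in the other lines. AFP (15.9) and ALB (23.8) were near the floor in N7. The summed signal of the fibroblast markers was also highest in N7 among the lines, of which FN1 made up 64346. The pluripotency gene POU5F1 was at 899 in N7 and at 30.8 to 101 in the other lines. The part of these markers' cell types in the IGF signals of N7 was not tested.

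The genes whose pattern was most like that of IGF2 and H19 were found by Pearson's r of the log2 signals over all genes tested, as a description over arrays that share their libraries and slides. Over the 8 arrays the genes most like IGF2 were MTO1 (r = 0.962), GSTM3 (0.954), GSTA1 (0.923), APOA1 (0.920) and CHMP1A (0.917). Over the 6 eSLC arrays they were F2 (0.993), GSTM3 (0.989), PPFIA4 (0.984), MTO1 (0.978) and APOA1 (0.976). F2, which encodes prothrombin, was at 7094 in N7, 2241 in P1 and 436 in P4, the order of IGF2, and at the floor in both SC arrays. For H19 the nearest genes over the 8 arrays were ATXN3 (0.962), ZMYM3 (0.947), GBE1 (0.946), SPATA4 (0.945) and GFAP (0.943), and over the 6 eSLC arrays SCARA5 (0.990), ZMYM3 (0.989), IGSF3 (0.987), UBALD1 (0.982) and ATXN3 (0.978). SCARA5, a ferritin receptor, was at 698 in P1 and 104 in P4, and unlike H19 it was high in SC P5 (938) and SC P10 (427). GSTA1 and SPATA4 were at or near the floor on all arrays, at most 24.9 and 22.8, and MTO1 ranged only from 339 to 485.

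Other genes that act with the IGFs were taken from a list of 41, of which 26 had a named probe and 23 were tested. Between eSLCs and SCs, 5 were called higher and 4 lower, and 14 were not called, with a median difference of 0.11. Of all genes tested, 19.7% were called higher and 15.7% lower, so the counts alone do not set these genes apart. By origin 5 were called higher in each, and 4, 5 and 3 were called lower in IVP-, NT- and PA-eSLCs. Of all genes tested, 17.7%, 15.8% and 20.3% were called higher in these comparisons, and 14.6%, 13.9% and 14.9% lower. IGFBP1, INS and INSRR were at the floor on all 8 arrays by their brightest probe and were not tested.

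The mRNA-binding proteins named after IGF2 moved in opposite directions. IGF2BP1, which binds and stabilizes mRNAs including that of IGF2, was at 14449, 9016, 10956, 15479, 17582 and 17643 in I2, I9, N2, N7, P1 and P4 and at the floor in both SC arrays, at least 1037-fold higher in eSLCs (adjusted p = 5.17e-06). IGF2BP3 was at 7271 to 16380 in the lines and at 41.7 and 45.3 in SCs, a difference of 7.94 (SE 0.30, adjusted p = 1.61e-05). IGF2BP2 was at the floor in 5 lines and at 40.7 in P1, against 44.7 and 69.6 in SCs, a difference of -1.80 (SE 0.43, adjusted p = 0.0174). IGF2BP2 passed the filter only through SCs, and its signals lay near background. The lines did not overlap with SCs for any of these 3 genes, which was the case for 57.6% of all genes tested.

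Among the carriers and regulators of the binding proteins, IGFBP7, a distant relative that binds IGFs weakly, was at 40.8, 95.8, 151, 801, 40.8 and 53.4 in I2, I9, N2, N7, P1 and P4. The SC arrays were at 37998 and 25619, a difference of -8.28 (SE 0.67, adjusted p = 0.000287). As with IGFBP2, N7 was the highest line. STC1, a secreted glycoprotein that inhibits the protease of IGFBP4, was at 385 to 1553 in the lines and at the floor in SCs, at least 58.7-fold higher in eSLCs (adjusted p = 0.000322). IGFALS, the acid-labile subunit of the circulating complex, had a difference of 0.55 that did not pass the threshold (adjusted p = 0.129).

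Downstream of the receptor, the catalytic subunits PIK3CB and PIK3CA of PI3-kinase were called in opposite directions. PIK3CB was at 1357 to 2077 in the lines and at 31.9 and 43.3 in SCs, a difference of 5.51 (SE 0.20, adjusted p = 1.42e-05). PIK3CA was at 500 to 721 in the lines and at 1459 and 1347 in SCs, a difference of -1.19 (SE 0.18, adjusted p = 0.00301). GRB14, an adaptor that inhibits receptors of the insulin family, was at 17.5 to 71.0 in the lines and at 385 and 323 in SCs, a difference of -2.98 (SE 0.42, adjusted p = 0.00236). RPS6KB1, the S6 kinase downstream of mTOR, was called higher by 1.63 (SE 0.20, adjusted p = 0.00147). AKT1 passed the adjusted threshold but not the fold (-0.72, adjusted p = 0.0275), and AKT2, GRB2, GRB10, SHC1, RHEB, RPTOR, EIF4EBP1 and FOXO3 were not called.

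**Figure D5:**
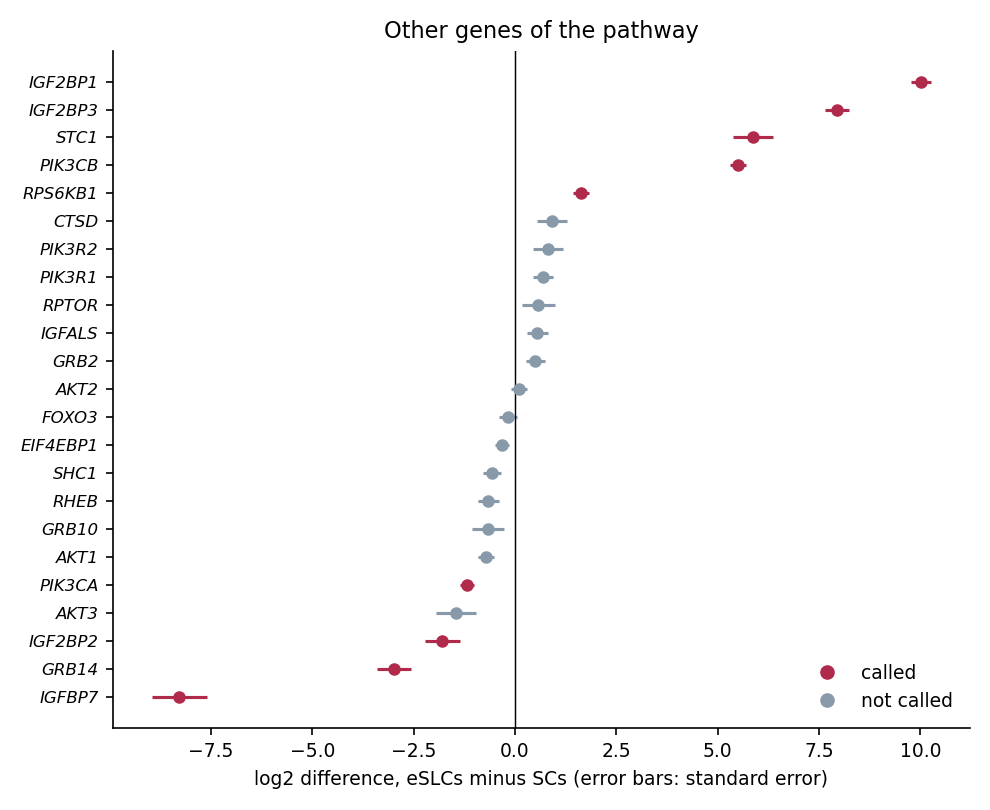
Log2 difference between eSLCs and SCs of the 23 other genes of the pathway that were tested, ordered by size, with the standard error of the limma fit as bars and the 9 called genes in red. IGF2BP1, IGF2BP3, STC1 and PIK3CB lie at 5.51 or above, and IGFBP7 lies at -8.28.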

How the data were processed

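The authors quantified 8 arrays with Agilent's Feature Extraction and normalized them with GeneSpring GX. The scanner files, as deposited, hold intensities on a linear scale that were not normalized across arrays, and the deposited matrix holds intensities normalized by a method not given in the sources used here. The background-subtracted signal was used. The processed signal was out of step with it in 6 files (Spearman's rho 0.161 to 0.216 over probes, 0.971 and 0.973 in N2 and I2). Control and outlier spots (1 to 11 per array) were left out, no spot was saturated, and spots of 1 probe were averaged. Signals were divided by the 75th percentile (1192 to 4092 scanner units), raised to the floor and taken to log2. Per array it exceeded the dimmest well-above-background signal by a factor of 75.3 to 136, and the number of arrays limits the precision. Probes were named through their RefSeq accession, and a gene was represented by its brightest probe, taken by mean log2 signal over the 8 arrays.

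Genes well above background on both arrays of a condition were tested by lmFit and eBayes of limma (version 3.58.1, under R 4.3.3), with 4 condition means and all 8 arrays. Between the 2 arrays of a condition, log2 values differed with an SD of 0.858 (IVP), 1.09 (NT), 0.680 (PA) and 0.410 (SC). Where all arrays of a condition were at the floor, a fold is a lower bound, computed against the floor. Permuting 2 against 2 arrays could not reach a p under 0.05. The script was tested on simulated data. Alternatives covered scaling, background correction, filter, floor, choice of probe, SCs as 1 sample, slide, the methods' t-test and leaving out each array. The members and lists were chosen with earlier results of these data known. All members are named, their probes singly or as ranges, with the 4 largest rises and falls of the other pathway genes and the 5 genes most like IGF2 and H19. Figures were drawn with matplotlib version 3.10.9.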

Additional observations from a re-analysis of the deposited data

How the results depend on the processing

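IGFBP2 and IGFBP5 kept their call between eSLCs and SCs under every alternative with a test (the filter on all arrays leaves out IGFBP2), and the called direction of IGF1R and IGFBP3 reversed under none. The call of IGFBP3 was lost without the filter (adjusted p = 0.0572), with a floor 4 times as high (0.0517), with SCs as 1 sample (0.153) and in the methods' t-test after adjustment (0.0750). Counting SCs as 1 sample lowered the number of members called in each of IVP-, NT- and PA-eSLCs, and that of all genes called as well. The methods' t-test after adjustment left 1, 0 and 0 members in these origins. It called 859, 296 and 1658 of all genes, against 3542, 3260 and 3862 in the main fit. Without adjustment it called 2 members in NT-eSLCs, with 2557 of all genes. With the authors' normalized values IGFBP6 was called (adjusted p = 0.0312), and 128 genes were called between NT and IVP, 13 between PA and IVP and 16 between PA and the others, of which 0 were members. Fitting only the conditions compared gave 5 members in IVP-eSLCs, with 3656 of all genes called. Leaving out 1 array moved the number of members called against SCs in both directions, for all eSLCs and for each origin. The number of other pathway genes called moved in both directions too, and the number of all genes called also moved. No member was called between origins in these fits.

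Uncalled values changed sign as follows, and the cause was not tested. Between eSLCs and SCs, the authors' values gave -0.13 for IGF1 and -0.0677 for IGFBP4, the mean of a gene's probes gave -0.30 for IGF1 and -4.58 for IGFBP4 (adjusted p = 0.000181), where it mixes probes that disagree, and slide 1 alone gave -0.00285 for IGF1. Between NT- and IVP-eSLCs, H19 was 0.82 with normexp, 0.61 with the higher floor, 0.44 as the mean of probes and 0.62 with the slide as a block, IGF2 was -0.0424 with the authors' values and IGF2R -0.11 as the mean of probes. Between PA-eSLCs and the other lines IGF2 was 0.25 with the authors' values and 1.24 with the slide as a block. Without single arrays, IGF2 ranged from -0.28 to 1.02 against SCs, -0.53 to 2.94 between NT and IVP, -0.96 to 1.07 between PA and IVP and -1.56 to 0.46 between PA and the others. H19 ranged from -1.52 to 1.18, -0.46 to 3.42 and -0.38 to 3.51 in the last 3, and IGF2R from -0.43 to 0.76 between NT and IVP and 0.17 to 1.36 between PA and IVP. The slide as a block also gave 2.40 for IGF2 between NT and IVP and 2.74 for H19 between PA and the others.

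Normexp used the median spot signal. Alternatives within a slide and for single probes were chosen after seeing the data. No paired analysis was possible because the labels give every sample the same replicate number, so that groups share fewer than 2 numbers. Signals of IGF1 and IGF2BP2, and of IGFBP2 and the dimmer IGFBP4 probe in the eSLC lines other than N7, lay near background. This limits their order and folds.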

Other observations

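For the PCR assays of the study, the list of primers gives the same oligonucleotide of 21 bases for both H19 and IGF2, as the reverse primer of H19 and the forward primer of IGF2. It is shown in capitals, with the partner of each pair in lower case, since both genes are followed line by line above. All are written 5′ to 3′.
H19 forward: cttggaacacggacttcttcaag
H19 reverse: TCTACTTCAGCCGACCATCCA
IGF2 forward: TCTACTTCAGCCGACCATCCA
IGF2 reverse: gtaagtctccagcagggcca
Where these oligonucleotides bind was not tested here, and no array value rests on them. In the cattle assembly ARS-UCD2.0, 2 annotated genes lie between IGF2 and H19, and 0 lie between INS, at the floor on all arrays, and IGF2.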
